A study of Homo sapiens with 12 samples.

Results

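The signaling lymphocytic activation molecule (SLAM) receptors and their adaptor SAP, the product of SH2D1A, were followed in OCI-Ly7 cells, an established B-cell non-Hodgkin lymphoma line. Members were taken by symbol: SH2D1A, SLAMF1, SLAMF6, SLAMF7, SLAMF8, CD48, CD84, CD244 and LY9, with every probe set whose annotation gives that symbol alone. These were 9 of 19775 genes measured and 28 of 54613 probe sets tested, 4 for SH2D1A and 24 for the 8 receptors. The family was picked because SH2D1A was known to be strongly higher after treatment in these arrays, so all its values are a description without a test. The receptors were taken by family name, also with earlier results of these arrays in view, and were tested. SLAMF9, also of this family by name, was not among the members. Cells of this single line received 1 μM PLS-123, 10 μM ibrutinib, 1 μM ibrutinib or vehicle over 24 hours, with 3 samples a group and 1 array each. Both compounds are covalent inhibitors of Btk, the kinase that relays the B-cell receptor signal, and nothing beyond the compound and its dose differed between the groups in the labels.

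SLAM receptors are immunoglobulin-like surface proteins of blood cells, and most of them bind a copy of themselves on the neighbouring cell. The exception is CD244, whose ligand is CD48, a family member held in the membrane by a lipid anchor and without a signaling tail. Tyrosines in the tails of SLAMF1, SLAMF6, CD84, CD244 and LY9 are docking sites for the SH2 domain of SAP, which brings in the kinase Fyn and competes with inhibitory phosphatases. SAP is best known from T and NK cells, and inherited loss of SH2D1A causes X-linked lymphoproliferative disease.

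Each array gives an intensity per probe set, a group of short probes against a stretch of the transcript. All levels below are log2 intensities, and each difference is a difference of log2 group means with its standard error from limma, so that "lower, at -1.77" gives that difference. Unless a probe set is named, a gene is described by its probe set with the highest mean. A receptor was called lower or higher at an adjusted p under 0.05 (limma, Benjamini-Hochberg over all 54613 probe sets). A probe set was called dim when its mean log2 intensity was under 3.87, the median of all probe sets. None of the 4 SH2D1A probe sets was dim, but 10 of the 24 receptor probe sets were, including every probe set of 3 receptors, SLAMF7, SLAMF8 and CD244. Separate cultures are not stated for the 3 samples in any group, so the p-values measure only the spread between these samples, which may be technical.

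**Figure D1:**
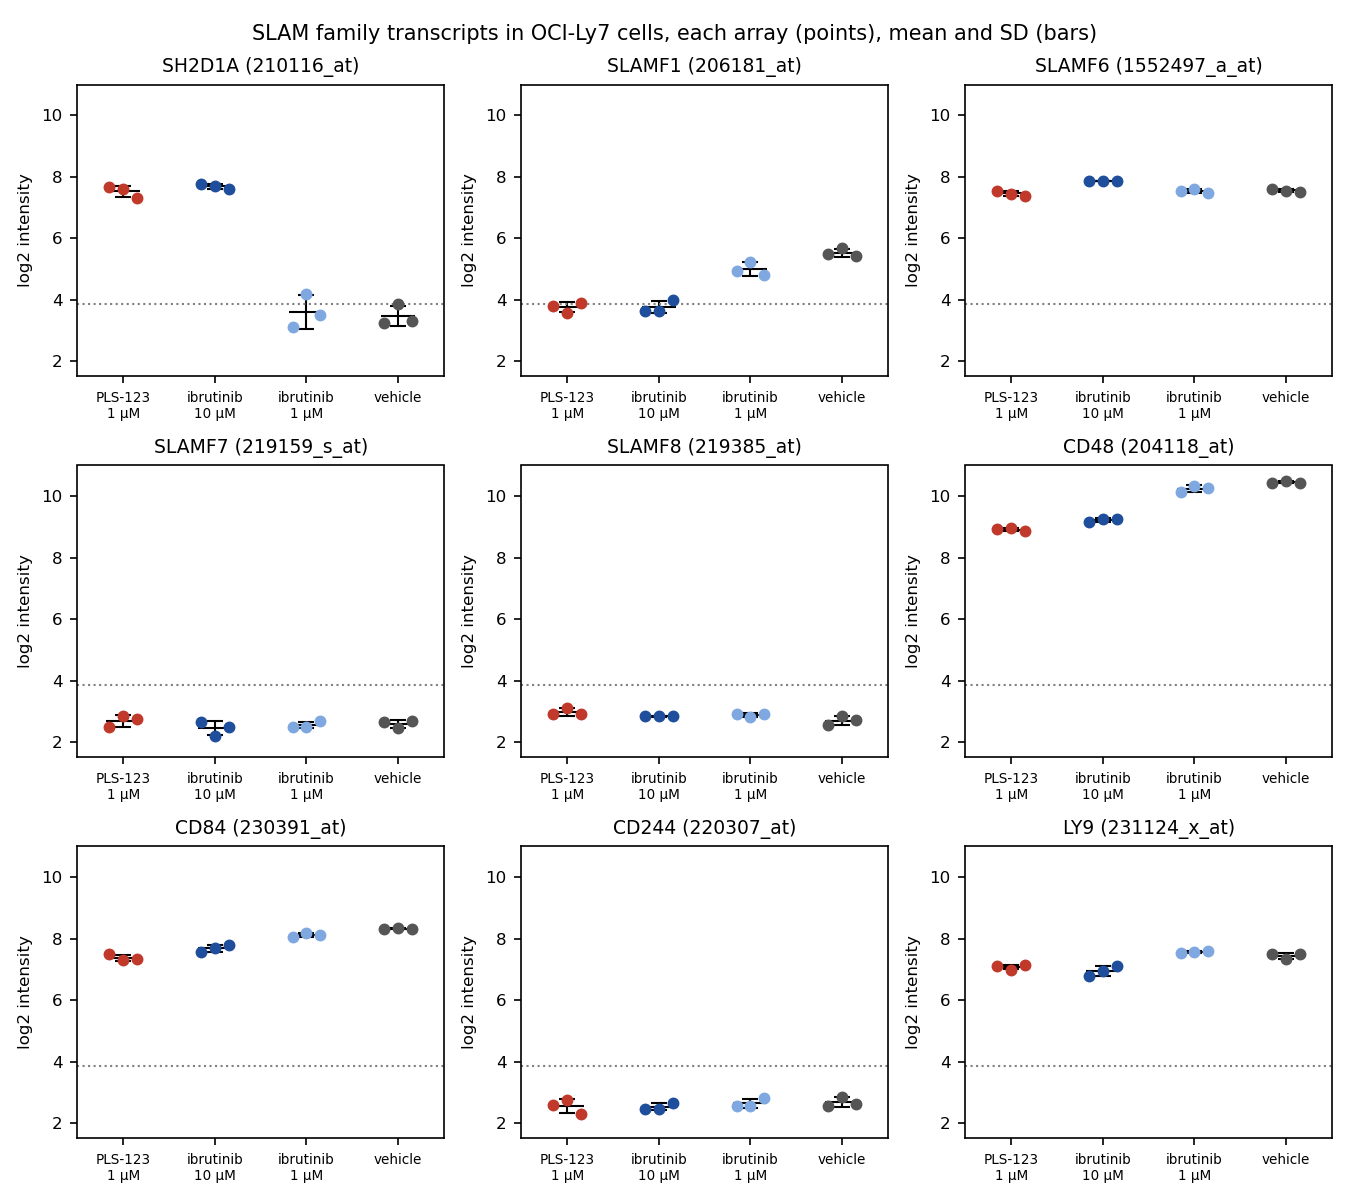
Log2 intensity of the 9 member genes (probe set with the highest mean) on each of the 12 arrays, in the order PLS-123 1 μM, ibrutinib 10 μM, ibrutinib 1 μM and vehicle; points are arrays, bars are the mean and SD (n = 3), and the dotted line marks 3.87. SH2D1A lies above 7 with PLS-123 and 10 μM ibrutinib and below 4.2 in the other arrays, while SLAMF1, CD48, CD84 and LY9 are lower in the same 6 arrays.

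SH2D1A encodes SAP, the adaptor of the family. Its probe set 210116_at read 7.66, 7.59 and 7.31 after PLS-123, 7.75, 7.71 and 7.60 after 10 μM ibrutinib, 3.11, 4.19 and 3.51 after 1 μM ibrutinib, and 3.23, 3.84 and 3.32 after vehicle. The 6 arrays of PLS-123 and 10 μM ibrutinib all lay above the 6 others, whereas the arrays of 1 μM ibrutinib overlapped those of vehicle. The mean was 7.52 ± 0.18 after PLS-123, 7.69 ± 0.08 after 10 μM ibrutinib, 3.60 ± 0.55 after 1 μM ibrutinib and 3.46 ± 0.33 after vehicle (SD, n = 3 each). The group means of 1 μM ibrutinib and vehicle were below the median of all probe sets. Against vehicle the difference was 4.06 ± 0.22 with PLS-123 and 4.22 ± 0.22 with 10 μM ibrutinib. No detection calls were used, so how far the vehicle level stood above background was not tested; counted only down to 3.87, the differences were 3.65 and 3.82. With 1 μM ibrutinib it was 0.14 ± 0.22. Ordered by difference, SH2D1A stood at rank 3 of 19775 genes with PLS-123, at rank 3 with 10 μM ibrutinib and at rank 2116 with 1 μM ibrutinib. In a bulk RNA sample a larger share of expressing cells and more transcript per cell cannot be told apart.

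The other 3 SH2D1A probe sets gave smaller differences of the same direction. With PLS-123 against vehicle they differed by 2.02, 1.95 and 1.62 (211210_x_at, 211209_x_at and 211211_x_at), and with 10 μM ibrutinib against vehicle by 2.10, 1.82 and 1.52. With 1 μM ibrutinib the corresponding differences were -0.23, 0.10 and -0.28. The size of the SH2D1A difference thus depended on the probe set, and the separation of the groups did not: in each of the 4 probe sets all 6 arrays of PLS-123 and 10 μM ibrutinib were above all 6 of 1 μM ibrutinib and vehicle. The suffix x marks probe sets in which some probes can also bind other transcripts.

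**Figure D2:**
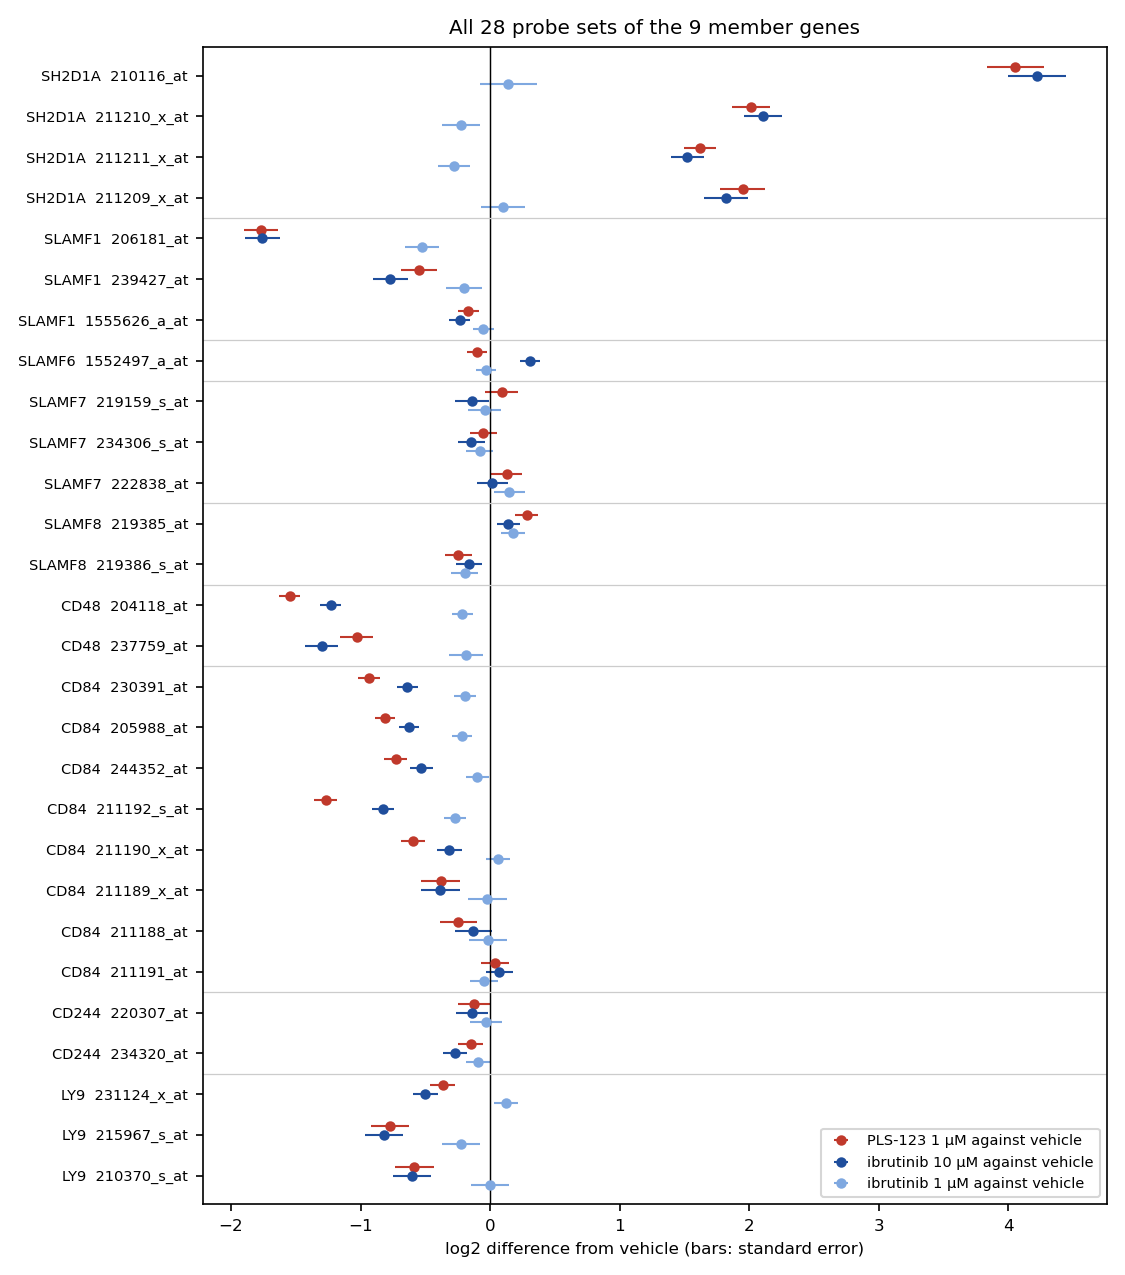
Log2 difference from vehicle of all 28 member probe sets, as points with the standard error as bars, for PLS-123 1 μM, ibrutinib 10 μM and ibrutinib 1 μM. The 4 SH2D1A probe sets lie between 1.52 and 4.22 with PLS-123 and 10 μM ibrutinib, and the most negative receptor probe set is SLAMF1 206181_at at -1.77.

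Among the receptors, SLAMF1, CD48, CD84 and LY9 were lower with PLS-123 than with vehicle, and SLAMF8 was called higher at a dim level. This made 4 of 8 receptor genes lower and 1 higher, where 12.8% of all genes were called lower and 7.54% higher. At that background 1.02 of 8 genes would be lower. Over the 24 receptor probe sets 12 were lower and 1 was higher, against 10.4% and 6.36% of all probe sets, and probe sets of a gene read the same transcripts and are not independent. With 10 μM ibrutinib, SLAMF1, CD48, CD84 and LY9 were again lower, SLAMF6 was higher, and the other 3 did not pass, where 5.82% of all genes were lower and 6.71% higher. The probe set counts were 11 lower and 1 higher, against 4.62% and 5.39%. The median difference of the 8 receptors was -0.24 with PLS-123 and -0.32 with 10 μM ibrutinib, while the medians of all genes were -0.04 and -0.02. Both comparisons used the same 3 vehicle arrays, so a deviation of those arrays enters both.

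SLAMF1, the founding receptor of the family and an entry receptor of measles virus, had the largest difference of the receptors with PLS-123 and with 10 μM ibrutinib. It read 3.80, 3.57 and 3.88 after PLS-123, 3.64, 3.64 and 4.0 after 10 μM ibrutinib, 4.93, 5.24 and 4.81 after 1 μM ibrutinib, and 5.49, 5.66 and 5.40 after vehicle. No array of PLS-123 or 10 μM ibrutinib reached the lowest array of the other groups, and both means (3.75 and 3.76) were under 3.87. The difference from vehicle was -1.77 ± 0.13 with PLS-123 (adjusted p = 7.4e-07) and -1.76 ± 0.13 with 10 μM ibrutinib (adjusted p = 9.0e-07). Counted from the vehicle mean of 5.52 only down to 3.87, it would be 1.65 lower with either treatment, and a difference between the treatments below that level cannot be read. A second probe set, 239427_at, was also lower, at -0.55 after PLS-123 (adjusted p = 0.014) and -0.77 with 10 μM ibrutinib (adjusted p = 0.0021). The remaining probe set, 1555626_a_at, was dim and did not pass at -0.17 and -0.23.

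CD48, the lipid-anchored ligand of CD244 and CD2, read 8.92, 8.97 and 8.86 after PLS-123, 9.17, 9.25 and 9.27 after 10 μM ibrutinib, 10.13, 10.34 and 10.28 after 1 μM ibrutinib, and 10.43, 10.51 and 10.44 after vehicle. The 4 groups did not overlap, with PLS-123 lowest and vehicle highest. CD48 was lower than with vehicle, at -1.55 ± 0.08 after PLS-123 (2.92-fold lower, adjusted p = 2.0e-08) and at -1.23 ± 0.08 with 10 μM ibrutinib (2.35-fold lower, adjusted p = 2.1e-07). Its second probe set, 237759_at, was lower, at -1.03 and -1.30, so the order of the 2 treatments differed between the probe sets. The doses of these treatments differ, and they are given side by side without a test.

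CD84, a self-binding receptor, read 7.49, 7.32 and 7.33 after PLS-123, 7.57, 7.69 and 7.79 after 10 μM ibrutinib, 8.06, 8.19 and 8.12 after 1 μM ibrutinib, and 8.31, 8.34 and 8.31 after vehicle. Here too no group overlapped another, in the same order as for CD48. The difference from vehicle was -0.94 ± 0.08 with PLS-123 (1.91-fold lower, adjusted p = 4.0e-06) and -0.64 ± 0.08 with 10 μM ibrutinib (adjusted p = 0.00017). Of its 8 probe sets 5 were lower with PLS-123, down to -1.27 for 211192_s_at, and 4 with 10 μM ibrutinib. The fifth, 211190_x_at, differed by -0.31 with 10 μM ibrutinib (adjusted p = 0.051). The 3 that did not pass in either comparison included both dim ones, 211188_at and 211191_at.

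LY9, a self-binding receptor of T and B cells, is measured by 3 probe sets. It read 7.10, 6.99 and 7.14 after PLS-123, 6.77, 6.96 and 7.10 after 10 μM ibrutinib, 7.53, 7.57 and 7.60 after 1 μM ibrutinib, and 7.51, 7.32 and 7.49 after vehicle. The difference from vehicle was -0.37 ± 0.10 with PLS-123 (adjusted p = 0.017) and -0.50 ± 0.10 with 10 μM ibrutinib (adjusted p = 0.0034). Its other probe sets were lower in both, 215967_s_at at -0.77 and -0.82 and 210370_s_at at -0.58 and -0.60. The call with PLS-123 was lost without vehicle array A, vehicle array C or PLS-123 array B (adjusted p = 0.066, 0.061 and 0.065).

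SLAMF6, another self-binding receptor that signals through SAP, has a single probe set. It read 7.55, 7.43 and 7.38 after PLS-123, 7.85, 7.87 and 7.86 after 10 μM ibrutinib, 7.52, 7.58 and 7.47 after 1 μM ibrutinib, and 7.60, 7.55 and 7.52 after vehicle. The 3 arrays of 10 μM ibrutinib were above all others, and the other 3 groups overlapped. SLAMF6 was higher with 10 μM ibrutinib by 0.31 ± 0.08 (adjusted p = 0.020), whereas the difference with PLS-123 was -0.10 (95% interval -0.27 to 0.06, adjusted p = 0.42). Its call was lost when the arrays were centred on the normalization control probe sets (adjusted p = 0.10), and without vehicle array B or C or any 1 of the 10 μM ibrutinib arrays (adjusted p between 0.052 and 0.078).

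The dim receptors showed no difference that held across their probe sets. SLAMF8, a receptor of myeloid cells whose short tail lacks the SAP docking tyrosines, read 2.90, 3.12 and 2.92 at 219385_at with PLS-123 and 2.56, 2.83 and 2.70 with vehicle. That is a difference of 0.28 ± 0.09 (adjusted p = 0.048), but 219386_s_at differed by -0.25 (adjusted p = 0.13). The call at 219385_at was lost when any 1 array but vehicle array B was left out. SLAMF7, known from plasma cells and NK cells, and CD244, a receptor of NK cells, did not pass with any probe set in any comparison. SLAMF7 differences from vehicle ran between -0.05 and 0.13 with PLS-123 and between -0.14 and 0.02 with 10 μM ibrutinib, and those of CD244 were -0.12 and -0.15 with PLS-123 and -0.14 and -0.27 with 10 μM ibrutinib.

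With 1 μM ibrutinib against vehicle no receptor passed, and neither did any other gene (0% of all genes lower, 0% higher). At an unadjusted p under 0.05 there were 3 of 8 receptor genes, where 5.09% of all genes had such a p in limma. The methods' t-test at its unadjusted threshold named the same 3 genes (4.55% of all genes had such a p by it), and 0 after Benjamini-Hochberg adjustment. The 3 were SLAMF1 at -0.53 ± 0.13, CD48 at -0.21 ± 0.08 and CD84 at -0.20 ± 0.08, with adjusted p between 0.87 and 0.92. Their 3 arrays with 1 μM ibrutinib all lay below the 3 vehicle arrays. Over all receptor probe sets 7 of 24 were lower without overlap, all of them of SLAMF1, CD48 and CD84, against 5.16% of all probe sets, and 2 of 24 were higher without overlap, against 4.36%. In LY9 the 3 arrays lay above vehicle, by 0.12 (adjusted p = 0.92).

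At the matched dose of 1 μM, PLS-123 and ibrutinib differed in the same 4 receptors. PLS-123 gave lower levels of SLAMF1, CD48, CD84 and LY9, 4 of 8 genes, where 10.1% of all genes were lower and 5.78% higher, and no receptor was higher. Of the 24 probe sets 11 were lower and 0 higher, against 7.93% and 4.58% of all probe sets. The difference, PLS-123 minus ibrutinib, was -1.33 for CD48 (95% interval -1.51 to -1.16, adjusted p = 1.1e-07), -1.24 for SLAMF1 (-1.53 to -0.95, adjusted p = 2.7e-05), -0.74 for CD84 (-0.92 to -0.56, adjusted p = 4.5e-05) and -0.49 for LY9 (-0.70 to -0.28, adjusted p = 0.0037). For SLAMF6 it was -0.07, with an interval from -0.24 to 0.09, and the arrays overlapped. The other SLAMF1 probe sets did not pass here, at -0.35 for 239427_at (adjusted p = 0.13) and -0.12 for 1555626_a_at (adjusted p = 0.44). SH2D1A was higher with PLS-123 by 3.92 ± 0.22, and by 2.24, 1.85 and 1.90 at 211210_x_at, 211209_x_at and 211211_x_at. These counts held when each array was left out in turn (4 genes each time).

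The receptor genes lie in order along chromosome 1, and SH2D1A lies alone on chromosome X. In the RefSeq annotation the order is SLAMF8, a stretch of other genes that includes SLAMF9, then SLAMF6, CD84, SLAMF1, CD48, SLAMF7, LY9 and CD244. CD84, SLAMF1 and CD48, the 3 receptors with the largest differences, follow each other, and SLAMF6 before them was not lower. SLAMF7 after them did not pass but was dim, so a fall could not be read. LY9, which follows SLAMF7, was lower with PLS-123 and with 10 μM ibrutinib. Between SLAMF8 and CD244, within 200 kb of a receptor gene, there were 13 other protein-coding genes, of which 11 were measured; genes outside these ends were not looked at. None of the 11, of which 3 were dim, was lower in any of the 4 comparisons. Of all genes 12.8% were lower with PLS-123, 5.82% with 10 μM ibrutinib, 0% with 1 μM ibrutinib and 10.1% at the matched dose. Among only 11 genes a count of 0 is near these shares. With PLS-123 and with 10 μM ibrutinib 2 of the 11 were higher, where 7.54% and 6.71% of all genes were. TAGLN2, an actin-binding protein, was higher by 0.49 after PLS-123 and 0.37 with 10 μM ibrutinib, and PIGM, an enzyme of the lipid anchor pathway that CD48 uses, by 0.25 and 0.45. The order around SH2D1A is STAG2, TEX13D, SH2D1A, TENM1 and TEX13C, and TEX13D and TEX13C were not measured. STAG2, a cohesin subunit gene, was higher by 0.47 after PLS-123 (adjusted p = 0.0012) and 0.42 with 10 μM ibrutinib (adjusted p = 0.0036). TENM1 on the other side, which was dim, did not pass at -0.00 and -0.10.

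**Figure D3:**
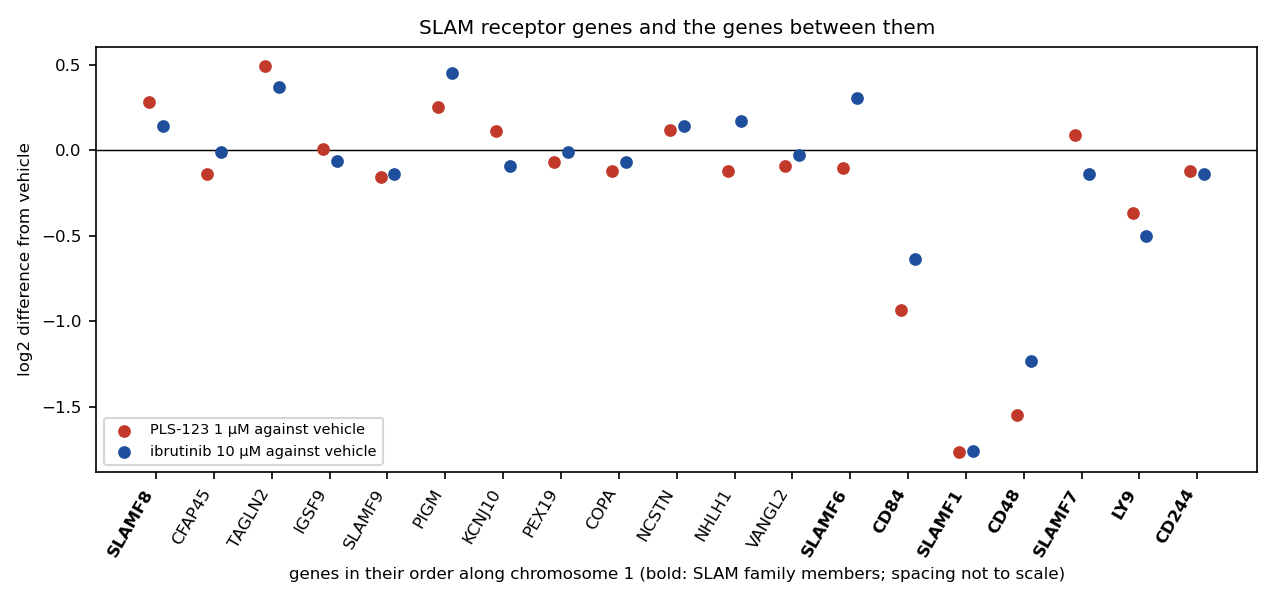
Log2 difference from vehicle (vertical axis) with PLS-123 1 μM and ibrutinib 10 μM for the 8 receptor genes, from SLAMF8 to CD244, and the measured genes between them, in their order along chromosome 1, with members in bold and spacing not to scale. CD84, SLAMF1 and CD48 lie side by side between -0.64 and -1.77, and the genes between SLAMF8 and SLAMF6 stay between -0.15 and 0.49.

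The promoters of the adaptor and of the 2 receptors with the largest differences are shown so that their letters can be read beside these differences. RefSeq promoters of GRCh38.p14, 250 bases before to 50 after the start of the gene, matched 6 of the 9 members, and CD84, SLAMF7 and LY9 had no entry. The sequences are 5′ to 3′ on the strand of the gene: SH2D1A chrX:124346313-124346612 (+), SLAMF1 chr1:160646995-160647294 (-) and CD48 chr1:160711773-160712072 (-). Capitals mark matches, on either strand, to 5 motifs: the ETS core AGGAAG, the E-box CAGGTG, the RUNX motif TGTGGT, the FOXO motif GTAAACA and the octamer ATGCAAAT.
SH2D1A: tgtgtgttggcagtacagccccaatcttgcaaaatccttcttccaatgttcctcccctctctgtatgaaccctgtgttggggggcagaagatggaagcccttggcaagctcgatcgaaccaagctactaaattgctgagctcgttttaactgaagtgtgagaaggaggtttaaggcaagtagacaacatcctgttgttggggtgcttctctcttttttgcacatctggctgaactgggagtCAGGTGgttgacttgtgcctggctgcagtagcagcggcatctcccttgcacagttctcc
SLAMF1: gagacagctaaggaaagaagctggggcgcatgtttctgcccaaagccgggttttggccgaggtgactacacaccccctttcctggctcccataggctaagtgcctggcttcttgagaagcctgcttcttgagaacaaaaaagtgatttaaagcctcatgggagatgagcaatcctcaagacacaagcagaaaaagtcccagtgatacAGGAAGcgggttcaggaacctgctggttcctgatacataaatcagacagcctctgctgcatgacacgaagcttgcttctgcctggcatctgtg
CD48: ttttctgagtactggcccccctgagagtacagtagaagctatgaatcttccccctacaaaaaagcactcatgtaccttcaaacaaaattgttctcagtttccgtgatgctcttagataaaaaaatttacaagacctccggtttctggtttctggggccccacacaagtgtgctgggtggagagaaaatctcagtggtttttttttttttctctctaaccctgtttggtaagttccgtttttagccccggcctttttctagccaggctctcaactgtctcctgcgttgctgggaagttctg
SH2D1A had 1 E-box, which 20.6% of the 35116 promoters in the table also hold, and SLAMF1 had 1 ETS core, held by 33.6%. CD48 had no match. Of the other members SLAMF6 had an ETS core and a FOXO match (3.42% of all promoters), SLAMF8 a RUNX match (13.1%) and CD244 none, and the octamer (1.77%) was in none of the 6. No matches of different motifs overlapped. A match describes letters in this window and was not tested for binding.

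The genes whose pattern was most like that of SH2D1A were BMPR1B, TJP1, PTGER4, ADTRP and PTPRE. Likeness was the root mean square difference over the 12 arrays, after subtraction of each gene's vehicle mean, among 19766 other genes. It was 0.32 for BMPR1B, a bone morphogenetic protein receptor, 0.42 for TJP1, a scaffold of tight junctions, and 0.46 for PTGER4, a receptor of prostaglandin E2. It was 0.49 for ADTRP and 0.65 for PTPRE, a tyrosine phosphatase. The measure favours genes of a like difference: BMPR1B differed from vehicle by 3.82 after PLS-123, 4.11 with 10 μM ibrutinib and -0.05 with 1 μM ibrutinib, and TJP1 by 4.46, 4.45 and 0.11. None of the 8 receptors entered this search.

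**Figure D4:**
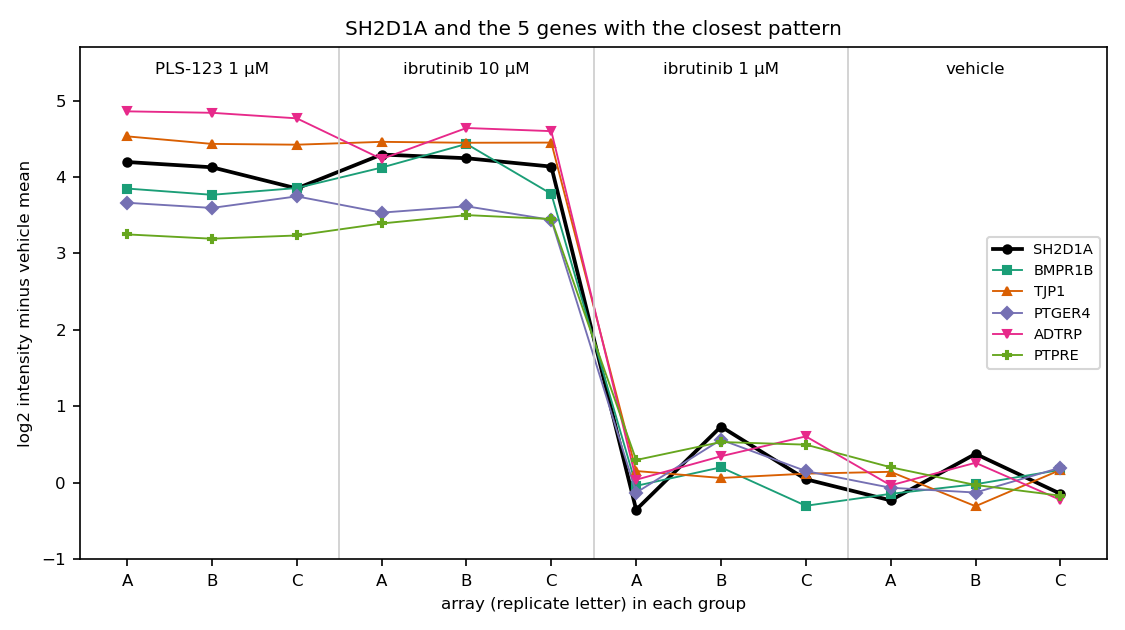
Log2 intensity minus the vehicle mean for SH2D1A (black) and the 5 genes closest to it on each of the 12 arrays, grouped by treatment and lettered by replicate. All 6 genes lie above 3 on the arrays of PLS-123 and 10 μM ibrutinib and below 1 on those of 1 μM ibrutinib and vehicle; the lines join arrays for reading only.

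Of 30 partners of the family (kinases, phosphatases, adaptors, ligands and other proteins that act with SAP or the receptors, and the family gene SLAMF9), all were measured and 6 were dim. With PLS-123 6 were lower and 3 higher than with vehicle, where the background would give 3.84 and 2.26 of 30. With 10 μM ibrutinib 3 were lower and 4 higher, where the background would give 1.75 and 2.01, and with 1 μM ibrutinib none passed. The median difference was 0.02 with PLS-123 and 0.05 with 10 μM ibrutinib, close to that of all genes. The counts of the list were thus near or somewhat above the background. A gene was counted here by its brightest probe set only. After PLS-123, 13 of the 93 probe sets of these genes were lower than after vehicle and 8 were higher. The shares of all probe sets were 10.4% and 6.36%. For 10 μM ibrutinib there were 6 in each direction among the 93, against 4.62% and 5.39% of all probe sets. These counts too were near or somewhat above the background. With PLS-123 7 genes passed only at another probe set (BECN1, CD2AP, FYN, GRB2, PIK3C3, PIK3R1 and PTPN11), and with 10 μM ibrutinib 3 did.

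VAV1, the exchange factor that follows Fyn and SAP in signaling, read 7.16, 7.04 and 7.06 after PLS-123, 7.09, 7.19 and 7.19 after 10 μM ibrutinib, 8.13, 8.20 and 8.24 after 1 μM ibrutinib, and 8.26, 8.31 and 8.25 after vehicle. It was lower, at -1.19 ± 0.08 after PLS-123 (adjusted p = 1.4e-07) and -1.12 ± 0.08 with 10 μM ibrutinib (adjusted p = 3.1e-07). UVRAG, a component of the lipid kinase complex that SLAMF1 binds in mouse macrophages, was lower, at -0.96 ± 0.10 and -0.59 ± 0.10 (adjusted p = 1.7e-05 and 0.0013). PTPN6, the phosphatase SHP-1, was lower, at -0.56 ± 0.11 after PLS-123 (adjusted p = 0.0023), and differed by -0.34 with 10 μM ibrutinib (adjusted p = 0.061). PLCG1, a phospholipase of T-cell receptor signaling, was higher by 0.70 ± 0.09 after PLS-123 (adjusted p = 0.00010) and 0.87 ± 0.09 with 10 μM ibrutinib (adjusted p = 1.8e-05). PLCG2, its counterpart that Btk activates in B cells, was lower, at -0.35 and -0.46 (adjusted p = 0.012 and 0.0028). Of the other PLCG2 probe sets none passed with PLS-123, and only 230917_at passed with 10 μM ibrutinib, at -0.29 (adjusted p = 0.036). INPP5D, the inositol phosphatase SHIP-1, was higher by 0.38 and 0.43. FYN itself differed by 0.00 and 0.05 at its brightest probe set and did not pass, while 212486_s_at was higher by 0.36 with PLS-123 (adjusted p = 0.025). GRB2, an adaptor, did not pass at its brightest probe set but was lower at 215075_s_at, at -0.71 and -0.58 (adjusted p = 2.4e-05 and 0.00017). PTPN11, the phosphatase SHP-2, was lower at 209896_s_at, at -0.69 and -0.37 (adjusted p = 6.6e-05 and 0.011), and with PLS-123 at 205868_s_at, at -0.72 (adjusted p = 0.00021), while its brightest probe set did not pass at 0.09 and 0.04. GRB2 and PTPN11 were chosen after their values were seen. SH2D1B, the other SAP-like adaptor, was dim and did not pass. FYB1, an adaptor downstream of Fyn, was dim and lower with PLS-123, at -0.58 (adjusted p = 0.039). None of its other probe sets passed with PLS-123, with differences between -0.16 and 0.17.

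At the matched dose PLS-123 gave 7 lower and 2 higher partners than ibrutinib, where the background would give 3.03 and 1.73. Over the 93 probe sets of the partners 11 were lower and 7 higher, against 7.93% and 4.58% of all probe sets. VAV1 differed by -1.10, UVRAG by -0.80, PTPN6 by -0.51 and PLCG1 by 0.52 (adjusted p = 3.8e-07, 0.00011, 0.0054 and 0.0015). Without 1 μM ibrutinib array C the count of partners was 5 in place of 9.

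**Figure D5:**
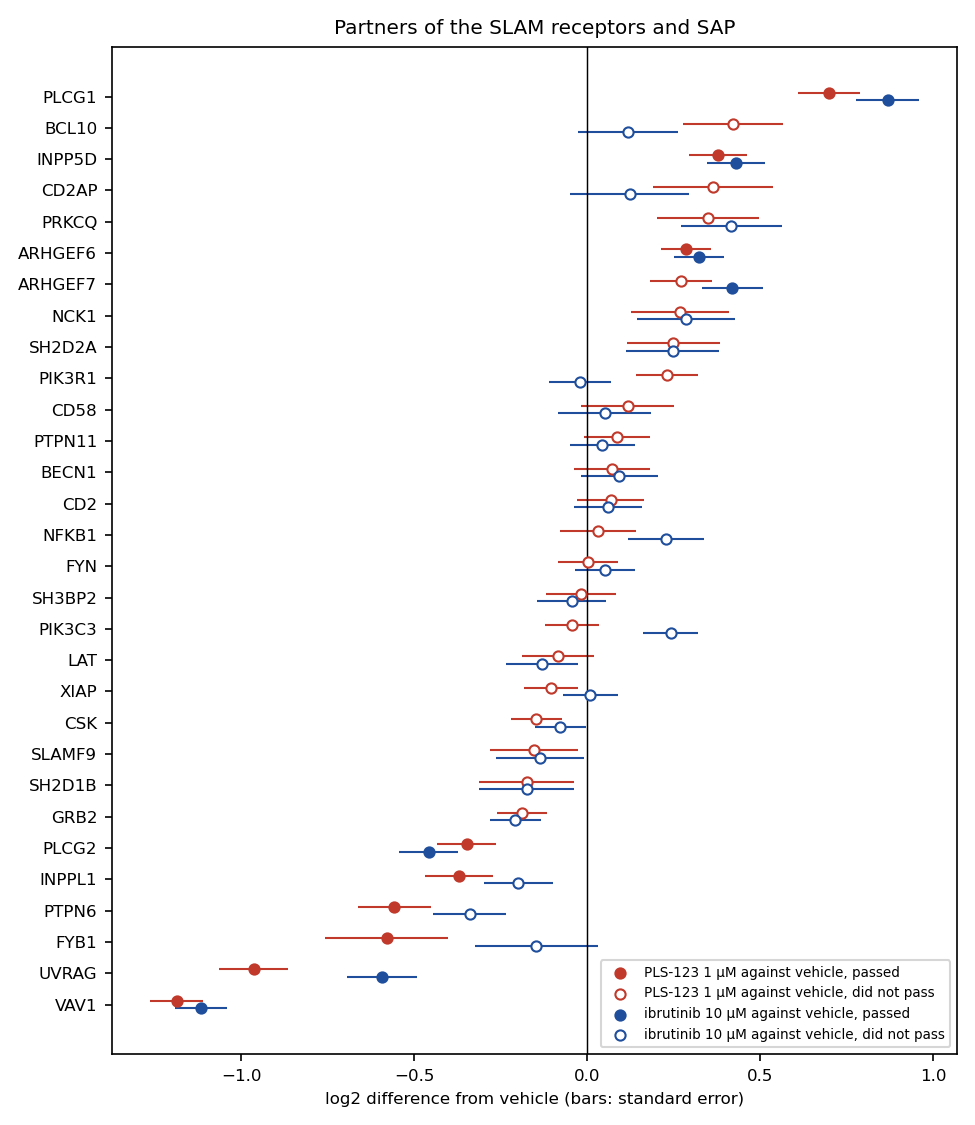
Log2 difference from vehicle (horizontal axis, standard error as bars) of the 30 partner genes with PLS-123 1 μM and ibrutinib 10 μM; filled points passed at an adjusted p under 0.05 and open points did not. VAV1 and UVRAG lie furthest left and PLCG1 furthest right with both treatments.

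Markers of other cells and RNA quality were read beside these results. The T-cell receptor genes CD3D and CD3G were dim, and CD3D, CD3E and CD3G did not pass in any comparison. Of 14 T-cell markers 6 were dim, and LCK (-0.69 and -0.78), ZAP70 (0.59 and 0.66) and IL7R (1.34 and 1.29) passed with PLS-123 and 10 μM ibrutinib. The summed intensity of the 14 markers ran between 2460 and 2645 after PLS-123 and between 2432 and 2458 after 10 μM ibrutinib. It ran between 2252 and 2377 after 1 μM ibrutinib and between 2369 and 2418 after vehicle. LCK (log2 10.67 after vehicle) and IL7R (8.98) make up most of this sum, and the next brightest marker, LAT, read 6.33. LCK and IL7R differed in opposite directions, so the sum cannot show the content of T cells. Of 10 NK-cell markers 6 were dim and only GZMA, also dim, passed, by 0.40 after PLS-123, and of 8 measured myeloid markers none passed. All 9 measured B-cell markers were above the dim level, and 6 were lower and 1 higher with PLS-123 and 4 lower with 10 μM ibrutinib. Of 8 plasma cell markers 3 were lower and 1 higher with either treatment. Among all genes 12.8% were lower and 7.54% higher with PLS-123, and 5.82% and 6.71% with 10 μM ibrutinib. CD22 (-2.14 and -1.87) and TNFRSF17 (-2.60 and -2.10) differed more than SLAMF1 (-1.77 and -1.76), the receptor with the largest difference. The log2 difference between the 3′ and 5′ ACTB control probe sets, which grows as RNA is shortened, was 2.93 ± 0.20 after PLS-123, 2.74 ± 0.08 after 10 μM ibrutinib, 2.67 ± 0.18 after 1 μM ibrutinib and 2.64 ± 0.04 after vehicle (SD, n = 3 each). With this ACTB difference as a covariate, SLAMF1, CD48 and CD84 remained lower with PLS-123, LY9 and SLAMF8 did not pass (adjusted p = 0.060 and 0.18), and the SH2D1A difference was 4.56. The PLS-123 arrays (2.80 to 3.17) all lay above the vehicle arrays (2.59 to 2.68) in this ACTB difference. The fit therefore cannot tell RNA shortening apart from treatment in this comparison. The part of the marker differences in the receptor results was not tested.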

How the data were processed

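Total RNA of 12 OCI-Ly7 samples was labelled with biotin and hybridized to Affymetrix U133 Plus 2.0 arrays. The authors deposited intensity values on the linear scale, normalized by RMA per the submitters' processing notes (version not stated), ranging between 2.09 and 15751. Log2 was taken with no pseudocount. Of 54675 probe sets 62 controls were left out. The array annotation gave 41091 probe sets 1 symbol, 1801 several and 11721 none. limma 3.58.1 in R 4.3.3 was fitted with 1 mean per group and eBayes (8 residual degrees of freedom), after being tested on simulated data. The number of arrays limits the precision.

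The members and gene lists were chosen with earlier results of these data known. Named were all members, partners called with a log2 difference over 0.5 against vehicle, the 5 genes nearest to SH2D1A in pattern, and called neighbouring genes; other partners and markers were named after their values were seen. SH2D1A received no test. Alternatives were 10 other settings and leaving out each array in turn. Other genes and the raw scans were not analysed here.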

Additional observations from a re-analysis of the deposited data

How the results depend on the processing

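SLAMF1, CD48 and CD84 remained lower under every alternative with PLS-123 and 10 μM ibrutinib against vehicle, and with PLS-123 against 1 μM ibrutinib; LY9, SLAMF6 and SLAMF8 were lost under some. The count of receptors called with PLS-123 against vehicle was 5, and 3 with the methods' t-test after Benjamini-Hochberg adjustment (4 at its own unadjusted threshold), with the ACTB covariate, and by the fold rule of the study (1.5-fold, unadjusted p under 0.05). Leaving out 1 array gave 3 to 5, with 3 without vehicle A, vehicle C or PLS-123 B. With 10 μM ibrutinib the count of 5 became 3 by the fold rule and 4 to 5 without 1 array. At the matched dose it was 4 throughout the leave-one-out fits, but LY9, 1.40-fold lower there, did not meet the fold rule. With 1 μM ibrutinib against vehicle the count was 0. For partners, the 9 with PLS-123 became 4 with the ACTB covariate, 3 by the fold rule and 6 to 11 without 1 array. The 7 with 10 μM ibrutinib became 3 by the fold rule and 6 to 8 without 1 array. The 9 at the matched dose became 3 by the adjusted t-test (12 unadjusted), 5 with the ACTB covariate, 2 by the fold rule and 5 to 12 without 1 array. The cause was not tested.

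The SH2D1A difference with PLS-123 against vehicle was 4.06, 4.56 with the ACTB covariate, 1.95, 2.02 and 1.62 at the other probe sets, and 3.94 to 4.25 without 1 array. With 10 μM ibrutinib it was 4.22, with 1.82, 2.10 and 1.52 at the other probe sets and 4.11 to 4.41 without 1 array. At the matched dose it was 3.92, 4.37 with the covariate, 1.85, 2.24 and 1.90 at the other probe sets and 3.67 to 4.21 without 1 array. With 1 μM ibrutinib against vehicle it was 0.14, and between -0.16 without ibrutinib array B and 0.39 without array A.

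The arrays share only a letter: over 18 same-letter pairs the deviations from the group means correlated at -0.255 to 0.224. With the letter as a replicate block the receptor counts were 4 with PLS-123, 5 with 10 μM ibrutinib, 0 with 1 μM ibrutinib and 4 at the matched dose, and the partner counts were 9, 7, 0 and 9. SLAMF8 was the receptor lost under the block (adjusted p = 0.062). With 3 arrays a group and 10 of 24 receptor probe sets dim, small differences in SLAMF7, SLAMF8 and CD244 cannot be resolved.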
